A study of Homo sapiens with 6 samples.

Results

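Iron uptake, iron export and heme turnover were followed through 10 genes in HL-60, an established line of human promyelocyte-like leukaemia cells kept in suspension. The members were taken by name out of the 58302 genes of the count tables: TFRC, SLC11A2, SLC48A1, FLVCR1, SLC40A1, NCOA4, HMOX1, BLVRB, ACO1 and IREB2. They were listed for their roles in iron and heme biology, with earlier results of these data known, so their counts are descriptions and not an unselected sample. RNA sequencing compared 3 libraries in which a short hairpin RNA targeted OSGEP (genotype given as OSGEP knockdown) with 3 libraries of a control hairpin (genotype given as WT). OSGEP encodes the catalytic subunit of the complex that writes the t6A mark next to tRNA anticodons, and the study asked what it does in leukaemia cells. All 6 libraries came from the same line under the same culture protocol. Whether a group holds separate cultures, more than 1 hairpin or a single clone is not given in the sources used here, so the spread behind each p-value may be technical.

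Cells take up most of their iron as transferrin bound to the transferrin receptor, release it in endosomes, and pass it to the cytosol through a divalent metal transporter. Iron that is not used is stored in ferritin or leaves through ferroportin, and ferritin is broken down again when its cargo receptor carries it to lysosomes. Heme is opened by heme oxygenase into biliverdin, carbon monoxide and iron, and biliverdin is then reduced to bilirubin. A pair of iron regulatory proteins binds a hairpin in messenger RNAs, the iron-responsive element, when iron is scarce. Binding in a 5′ untranslated region blocks translation, and binding in the 3′ untranslated region of the transferrin receptor message protects it from decay.

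That hairpin is shown first because several members and both ferritin messages carry it. The coding transcripts of GENCODE release 29 (GRCh38) were searched for the letters CNNNNNCAGTGN on the transcript strand, followed by bases that pair with the 5 before the loop, with or without 1 unpaired base in the 3′ arm, and with at least 2 of the 3 base pairs below the bulged C. NCOA4, ACO1, SLC48A1 and FLVCR1 held the letters without the stem. The letters alone stood in a 3′ untranslated region of 37.7% of 19133 genes and a 5′ untranslated region of 16.7% of 19028 genes. With the stem required, the shares were 0.643% and 0.215%, over regions of differing length. The capitals below mark the 6 bases of the loop, and all are written 5′ to 3′ as DNA.
TFRC element 1: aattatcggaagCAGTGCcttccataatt
TFRC element 2: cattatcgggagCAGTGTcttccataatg
TFRC element 3: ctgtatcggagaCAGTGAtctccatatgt
TFRC element 4: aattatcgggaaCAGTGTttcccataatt
SLC11A2: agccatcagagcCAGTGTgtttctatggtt
SLC40A1: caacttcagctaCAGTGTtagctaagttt
FTH1: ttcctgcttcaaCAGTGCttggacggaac
FTL: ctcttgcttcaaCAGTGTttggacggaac
EPAS1: tacaatcctcggCAGTGTcctgagactgta

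The 4 TFRC matches lay in exon 19, the last exon, in the 3′ untranslated region on the minus strand, at chr3:196050979-196051007, chr3:196050575-196050603, chr3:196050510-196050538 and chr3:196050463-196050491. The SLC11A2 match lay in the 3′ untranslated region at chr12:50988268-50988297 on the minus strand, in exon 16. It has 1 unpaired base in the 3′ arm, as does the match in EPAS1. The SLC40A1 match lay in exon 1, in the 5′ untranslated region, at chr2:189580661-189580689 on the minus strand. It occurs in 1 of 5 annotated coding transcripts with a 5′ untranslated region. The FTH1 match (chr11:61967574-61967602, minus strand), the FTL match (chr19:48965335-48965363, plus strand) and the EPAS1 match (chr2:46297479-46297508, plus strand) lay in exon 1 in 5′ untranslated regions. IREB2 also held a match with 1 unpaired base in its 3′ untranslated region. The EPAS1 and IREB2 matches each occur in 1 of 2 annotated coding transcripts with the region concerned. A match is a description of letters and pairing, and binding was not measured here.

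Total counts ran from 8326982 to 10157091 per library. Expression is given as CPM (counts scaled to one common library total, with TMM factors), edgeR's quasi-likelihood F test was run on 14018 genes, and a gene was called at a Benjamini-Hochberg adjusted p under 0.05. OSGEP, the targeted gene, stood at 21.7 ± 1.21 CPM in the knockdown, against 60.1 ± 14.8 CPM in control libraries (SD, n = 3 each, log2 fold change -1.47, edgeR adjusted p = 0.000228). As markers of the line, MPO stood at 954 ± 16.1 CPM under the control hairpin and CD33 at 68.3 ± 8.44 CPM. Of 16 erythroid markers, which matter here because red cell precursors are rich in iron and heme genes, 8 had no count in any library, GATA1 and SLC4A1 among them. EPOR and KLF1 alone of the 16 were tested, and neither was called. The summed level of the list was 20.4 to 24.3 CPM under the control hairpin and 9.2 to 19.0 CPM in the knockdown. EPOR, at means of 16.5 and 10.8 CPM (edgeR adjusted p = 0.261), made up most of it.

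Of the 10 iron and heme members, 3 rose in the knockdown, 0 fell and 7 were not called. HMOX1, the inducible heme oxygenase, rose from 1.42 ± 1.65 to 33.7 ± 1.95 CPM (SD, n = 3 each), SLC48A1, a heme transporter, rose 2.00-fold, and SLC11A2, the divalent metal transporter, rose 1.76-fold. Among all genes tested, 10.8% were called, 5.19% higher and 5.56% lower. At an adjusted p under 0.01, 2 members and 5.87% of all genes were called. In bulk libraries, more cells of a state and more RNA per cell cannot be told apart. The median log2 fold change of the 10 members was 0.16, beside 0.01 over all genes tested. All 10 passed the filter on low counts, HMOX1 only through its knockdown libraries, so its place in the counts of members supports nothing. The groups did not overlap for 5 members, 4 higher and 1 lower, where 28.9% of all genes tested showed no overlap, 13.3% higher and 15.6% lower.

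Some markers of cell state also differed between the groups. Beside each list of markers stand the shares over all genes tested, 5.19% called higher and 5.56% called lower. Of 13 macrophage markers, 4 were tested, CD14 and VSIG4 rose by 3.48 and 3.23 on the log2 scale, MARCO fell by 1.61 and CSF1R was not called. The summed level of the list was 38.5 to 45.4 CPM under the control hairpin and 134.0 to 158.1 CPM in the knockdown. CD14 (mean of 72.1 CPM) and VSIG4 (42.2 CPM) made up most of the knockdown sum. CD68 and CD163 were not tested, at means of 1.21 and 1.45 CPM in the knockdown. C1QB and SPIC, a factor of iron-recycling macrophages, had 0 counts. Of 7 promyelocyte markers, 4 fell and 0 rose, where 5.56% of all genes tested were called lower. The sums were 2666.4 to 2826.5 CPM under the control hairpin and 926.1 to 1075.0 CPM in the knockdown, mostly from MPO, PRTN3 and ELANE. AZU1 also fell, while CTSG (log2 fold change -0.72), CD33 (-0.03) and CEBPE (0.94) were not called. Of 10 lymphoid markers, 3 were tested and NKG7 fell, with sums of 389.7 to 431.3 CPM under the control hairpin and 384.1 to 413.8 CPM in the knockdown. CD4, which monocytic cells also express, made up most of that sum, with means of 324 and 367 CPM, and NKG7 stood at 86.1 and 23.3 CPM. Their part in the changes of HMOX1, SLC48A1, SLC11A2 and the genes around them was not tested.

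**Figure D1:**
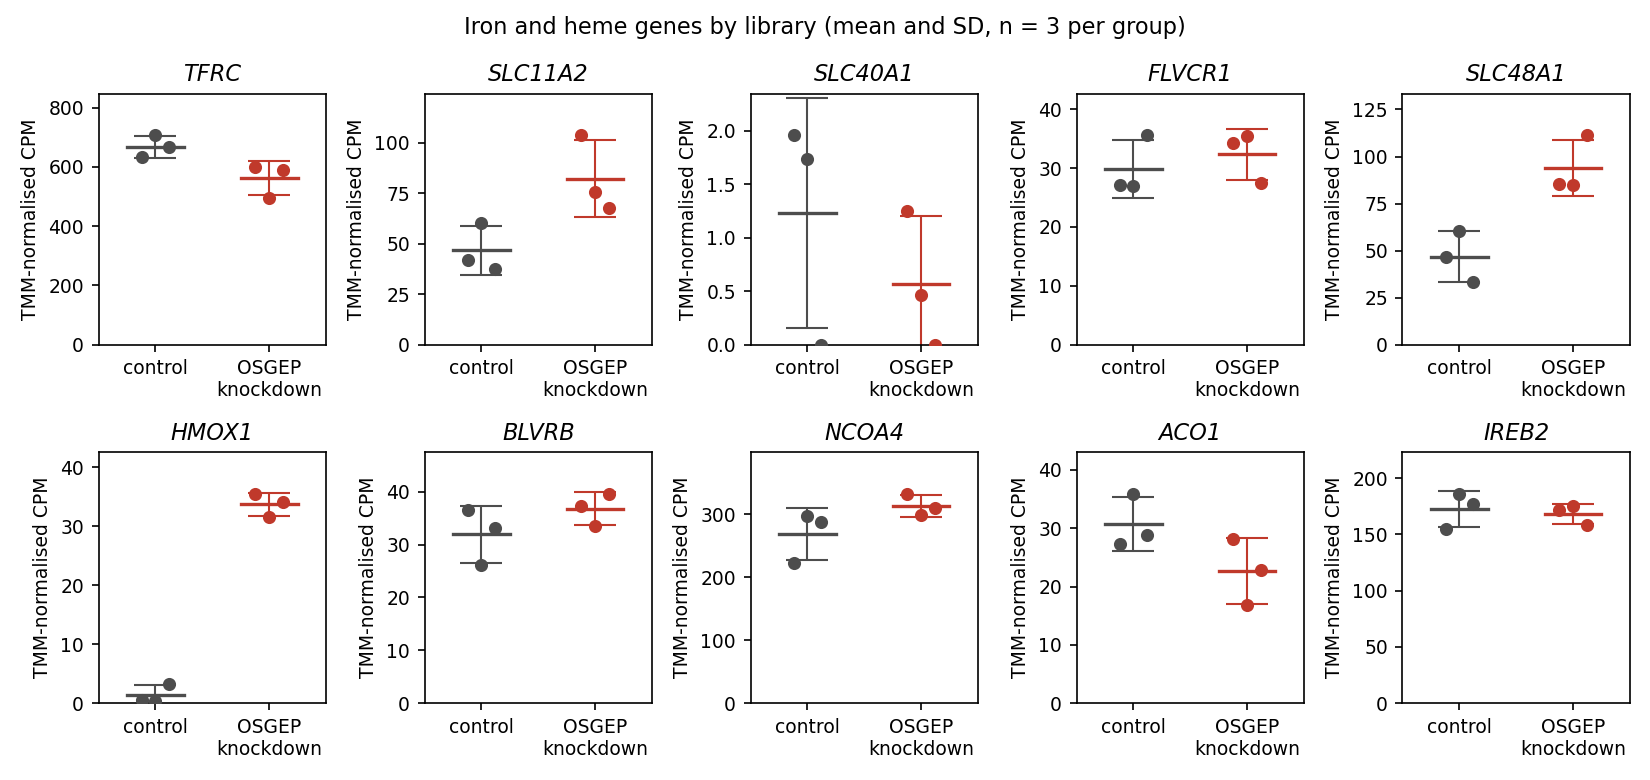
TMM-normalised CPM (y axis, linear, each panel with its own scale from 0) of the 10 members in the 3 control and 3 OSGEP knockdown libraries; points are libraries, long bars means, and whiskers SD. HMOX1 stood between 31.62 and 35.47 CPM in the knockdown and at 3.32 CPM or below in the control, while the SLC40A1, FLVCR1, BLVRB, ACO1 and IREB2 groups overlapped.

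HMOX1 breaks the heme ring and is the rate-limiting step of heme catabolism. Its expression was 0.52, 0.41 and 3.32 CPM in control libraries 1, 2 and 3 (5, 4 and 27 counts) and 35.47, 31.62 and 34.04 CPM in knockdown libraries 1, 2 and 3 (340, 342 and 287 counts). The knockdown libraries were close together, and control 3 stood above the other controls but far below any knockdown library. Its log2 fold change was 4.62 (SE 0.54, 24.6-fold, edgeR adjusted p = 2.77e-05). Without control 3 it was 6.15 on the log2 scale, 70.8-fold, and it was between 4.16 and 4.68 when any other library was left out. With limma-voom it was 5.23, 37.6-fold. HMOX1 (ENSG00000100292) lies on chromosome 22 at 35380361 to 35394214 on the plus strand of GRCh38, and no annotated gene overlaps its exons.

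The constitutive enzyme HMOX2, named after its values were seen, gives a reference for the size of this rise. On the scale of CPM per kilobase of exon (RPKM), HMOX1 stood at 0.589 ± 0.687 in the control, and HMOX2 at 15.6 ± 2.56. In the knockdown HMOX1 reached 14.0 ± 0.810 RPKM and HMOX2 stood at 14.1 ± 4.81 RPKM. HMOX2 itself was not called (log2 fold change -0.15, edgeR adjusted p = 0.764), and its exons overlap those of NMRAL1 on the other strand. In knockdown libraries 1, 2 and 3, HMOX2 stood at 11.5, 11.1 and 19.6 RPKM and HMOX1 at 14.8, 13.1 and 14.2 RPKM. The close means therefore rest on HMOX2 in knockdown 3. In the control, the libraries of the genes were far apart on this scale.

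BLVRB (chromosome 19, 40447765 to 40465840, minus strand), which reduces flavins and some forms of biliverdin downstream of heme oxygenase, was not called. It stood at 36.48, 26.08 and 33.23 CPM in control libraries 1, 2 and 3 and at 37.35, 33.47 and 39.61 CPM in knockdown libraries 1, 2 and 3, and the groups overlapped. The log2 fold change was 0.20 (edgeR adjusted p = 0.650), with an unadjusted 95% interval from -0.24 to 0.65. BLVRA, the main biliverdin reductase of the adult and also named after its values were seen, had 0.16 (edgeR adjusted p = 0.707).

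SLC48A1 (chromosome 12, 47753916 to 47782753, plus strand), also known as HRG1, carries heme from endosomes and lysosomes into the cytosol. Its expression was 46.47, 60.34 and 33.48 CPM in control libraries 1, 2 and 3 and 85.35, 84.96 and 111.24 CPM in knockdown libraries 1, 2 and 3. Every knockdown library lay above every control library, with control 3 the lowest and knockdown 3 the highest. Its log2 fold change was 1.00 (SE 0.20, edgeR adjusted p = 0.00364), and it stayed called without any 1 library, at 0.81 to 1.22. The exons of SLC48A1 overlap 83 bases of RAPGEF3 and 32 bases of HDAC7 on the other strand. FLVCR1 (chromosome 1, 212858255 to 212899363, plus strand), which moves heme and choline across membranes, was not called, at 29.9 ± 4.92 CPM under the control hairpin and 32.4 ± 4.36 CPM in the knockdown (SD, n = 3 each, log2 fold change 0.12, unadjusted 95% interval -0.36 to 0.59).

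TFRC (chromosome 3, 196027183 to 196082189, minus strand), the transferrin receptor, was among the most abundant members, and its level stood slightly lower in the knockdown without passing the test. Control libraries 1, 2 and 3 held 632.7, 706.4 and 665.8 CPM, and knockdown libraries 1, 2 and 3 held 598.4, 496.3 and 590.1 CPM. The groups did not overlap, yet the gap between the highest knockdown and the lowest control library was smaller than the SD of either group. The log2 fold change was -0.25 (SE 0.10, edgeR adjusted p = 0.141), with an unadjusted 95% interval from -0.47 to -0.04. Leaving out 1 library gave -0.30 to -0.16, and no such fit called the gene.

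SLC11A2 (chromosome 12, 50979401 to 51028566, minus strand), also known as DMT1, moves ferrous iron out of endosomes once the transferrin receptor has delivered it. It stood at 41.84, 60.45 and 37.66 CPM in control libraries 1, 2 and 3 and at 103.61, 75.53 and 67.48 CPM in knockdown libraries 1, 2 and 3. The groups did not overlap, but knockdown 1 stood well above the other libraries of its group. Its log2 fold change was 0.82 (SE 0.21, edgeR adjusted p = 0.0178). The call was lost without knockdown 1 (0.61), control 1 (0.74) or control 3 (0.68). TFRC and SLC11A2 both hold the hairpin in the 3′ untranslated region, and their values pointed in opposite directions. That difference was not tested. The SLC11A2 hairpin occurs in 5 of 10 annotated coding transcripts with a 3′ untranslated region, and gene counts do not tell forms with and without it apart.

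SLC40A1 (chromosome 2, 189560579 to 189583758, minus strand) encodes ferroportin, the exporter of iron from cells, and it was close to the limit of detection. It had 19, 17 and 0 counts in control libraries 1, 2 and 3 and 12, 5 and 0 counts in knockdown libraries 1, 2 and 3. The libraries numbered 3 had no count in either group, which allows up to 0.369 CPM under the control hairpin and 0.356 CPM in the knockdown at 3 counts. The log2 fold change was -1.09 (edgeR adjusted p = 0.753), with an unadjusted 95% interval from -4.28 to 2.1, and the difference was within the spread between libraries. With 1 library left out it ran from -2.31 (without knockdown 1) to -0.51 (without knockdown 3).

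NCOA4 (chromosome 10, 46005088 to 46030714, minus strand), the cargo receptor that carries ferritin to lysosomes, stood at 222.1, 297.4 and 287.9 CPM in control libraries 1, 2 and 3 and at 332.7, 298.6 and 309.7 CPM in knockdown libraries 1, 2 and 3. Control 1 was low, and knockdown 2 lay just above control 2. The gene was not called (log2 fold change 0.22, unadjusted 95% interval -0.04 to 0.48, edgeR adjusted p = 0.317). Its 4 annotated pseudogenes held 279 counts in all libraries together beside 16432 of NCOA4.

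The iron regulatory proteins were not called either. ACO1 (chromosome 9, 32384603 to 32454769, plus strand) encodes IRP1, which doubles as cytosolic aconitase when it holds an iron-sulfur cluster, and stood at 30.7 ± 4.57 CPM under the control hairpin and 22.6 ± 5.68 CPM in the knockdown (SD, n = 3 each, log2 fold change -0.44, edgeR adjusted p = 0.333). Its lowest value was 16.83 CPM in knockdown 2 and its highest 35.90 CPM in control 2, and the groups overlapped. IREB2 (chromosome 15, 78437431 to 78501456, plus strand) encodes IRP2, which is degraded when iron is plentiful, and stood at 172 ± 16.3 CPM under the control hairpin and 168 ± 9.01 CPM in the knockdown (-0.04, edgeR adjusted p = 0.914). Its unadjusted 95% interval ran from -0.29 to 0.22. In the control, IREB2 was at 16.0 ± 1.5 RPKM and ACO1 at 4.06 ± 0.605 RPKM. FBXL5, the iron-sensing adaptor that marks IRP2 for degradation, named after its values were seen, had a log2 fold change of 0.39 (edgeR adjusted p = 0.205).

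**Figure D2:**
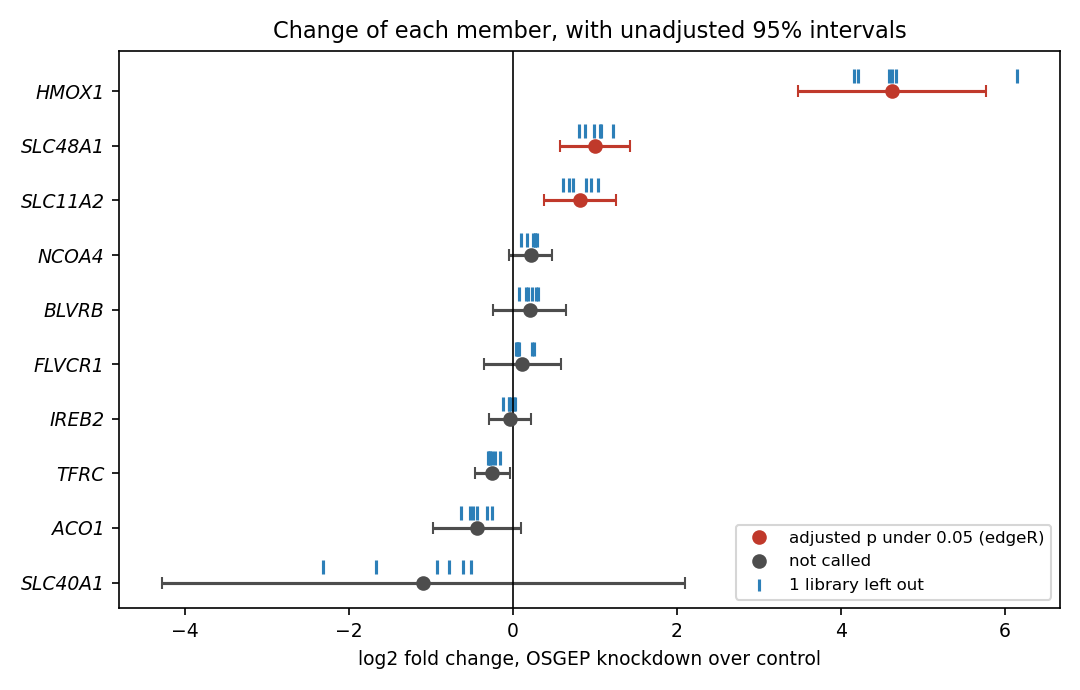
Log2 fold change of each member, OSGEP knockdown over control (x axis), with unadjusted 95% intervals from the edgeR fit; red marks genes called at an adjusted p under 0.05, and blue ticks are the values with 1 library left out. HMOX1 at 4.62, SLC48A1 at 1.00 and SLC11A2 at 0.82 were called, and the interval of SLC40A1 ran from -4.28 to 2.1.

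Compared per length, the members spanned from TFRC at 84.7 ± 4.68 RPKM to SLC40A1 at 0.285 ± 0.248 RPKM in the control. NCOA4 followed TFRC at 66.0 ± 10.1 RPKM, then BLVRB, IREB2, SLC48A1, FLVCR1, SLC11A2, ACO1 and HMOX1. Neighbours whose libraries overlapped were BLVRB and IREB2, FLVCR1 and SLC11A2, SLC11A2 and ACO1, and HMOX1 and SLC40A1. In the knockdown, HMOX1 moved from the ninth to the sixth place, SLC48A1 at 19.1 ± 3.06 RPKM from the fifth to the fourth, and NCOA4 at 76.9 ± 4.27 RPKM stood above TFRC at 71.2 ± 7.19 RPKM, with overlapping libraries. Length is the union of all annotated exons, which can understate genes with long alternative ends such as IREB2 and SLC11A2.

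**Figure D3:**
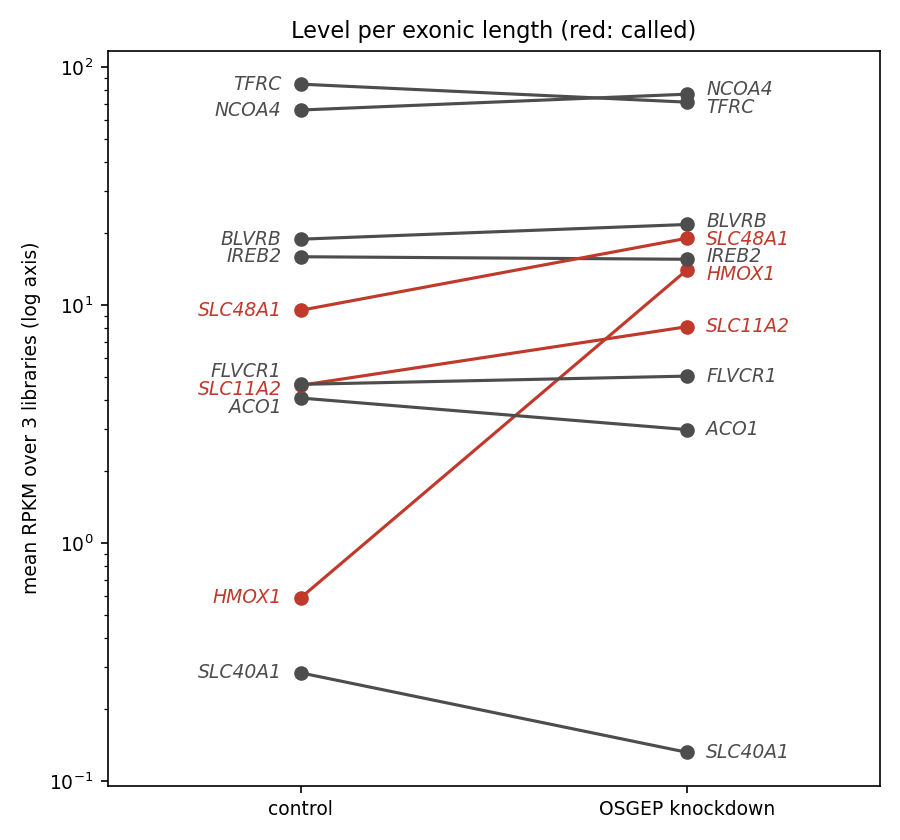
Mean RPKM over 3 libraries (y axis, log scale) of the 10 members in control and OSGEP knockdown cells, 1 line per gene, with called genes in red. HMOX1 crosses from 0.589 to 14.0 RPKM, while TFRC and NCOA4 stay at the top in both groups.

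Around the members, 114 other genes of iron and heme metabolism were listed, of which 86 were tested. Of these, 9 rose, 4 fell and 73 were not called, 15.1% called beside 10.8% of all genes, with a median log2 fold change of 0.14. HP and EPAS1, both called higher, passed the filter on low counts only through their knockdown libraries. Their place in that share supports nothing. The messages of both subunits of ferritin, which stores iron inside the cell, rose, and protein was not measured. FTH1, the heavy chain, stood at 184.9, 144.6 and 137.6 CPM in control libraries 1, 2 and 3 and at 392.9, 496.9 and 422.9 CPM in knockdown libraries 1, 2 and 3 (log2 fold change 1.49, edgeR adjusted p = 1.59e-06), and FTL, the light chain, rose by 1.13 on the log2 scale (edgeR adjusted p = 1.15e-07). Both are uncertain in level, since their 25 and 16 annotated pseudogenes may share reads with them. Over all libraries together, those pseudogenes held 34908 counts beside 17033 of FTH1, and 123913 beside 320648 of FTL. Of 5 tested genes known for the hairpin in the 5′ untranslated region, FTH1, FTL and EPAS1 were called higher. Of 4 known for it in the 3′ region, SLC11A2 was. Those are 60% and 25% called, beside 10.8% of all genes. EPAS1 passed the filter on low counts only through its knockdown libraries, so its place in the 60% supports nothing. Not every gene of the 3′ list held a match in the search.

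Among regulators of iron and heme genes, 1 of 14 tested rose and 0 fell, a share of 7.14% beside 10.8% of all genes. The groups did not overlap for 5 of the 14 on the higher side and 2 on the lower, beside 13.3% and 15.6% of all genes. The called gene was EPAS1, which encodes the hypoxia factor HIF-2α and holds the hairpin shown above in its 5′ untranslated region. It rose from 1.79 ± 1.25 to 21.8 ± 6.02 CPM (SD, n = 3 each, log2 fold change 3.59, edgeR adjusted p = 0.000106). With 1 library left out it ran from 3.21, 9.22-fold, without control 1 to 4.31, 19.9-fold, without control 2. Like HMOX1, it passed the filter on low counts only through its knockdown libraries, with 7, 31 and 12 counts in control libraries 1, 2 and 3, so its place in the counts here supports nothing. BACH1, the heme-sensing repressor of HMOX1, and NFE2L2, its activator, were named after their values were seen. BACH1 was not called, with 42.0 ± 4.01 CPM under the control hairpin and 42.1 ± 2.80 CPM in the knockdown. NFE2L2 stood at 72.8 ± 3.98 and 93.8 ± 12.5 CPM (log2 fold change 0.36, edgeR adjusted p = 0.152).

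In heme synthesis, 2 of 18 tested genes were called higher, 2 lower and 14 not (22.2% called, beside 10.8% of all genes), with a median log2 fold change of 0.02. ALAS1, the rate-limiting enzyme outside red cells, rose from 80.7 ± 6.93 to 119.9 ± 9.0 CPM (log2 fold change 0.57, edgeR adjusted p = 0.0136), and FECH, which inserts iron into the ring, rose by 0.50 on the log2 scale (edgeR adjusted p = 0.0374). SLC25A37, or mitoferrin 1, which brings iron into mitochondria, fell by 0.56, and ABCB10, which stabilises mitoferrin, fell by 0.53 (edgeR adjusted p of 0.00757 and 0.0139). These calls were not firm to single libraries. ALAS1 lost its call without knockdown 3, control 2 or control 3 (0.52 to 0.58), FECH in 5 of 6 such fits (0.43 to 0.60), ABCB10 without knockdown 3, control 1 or control 2 (-0.53 to -0.49) and SLC25A37 without control 3 (-0.52).

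Among other genes of heme handling, 3 of 10 tested rose and 0 fell (30% called, beside 10.8% of all genes). HP, which encodes haptoglobin, the plasma scavenger of free haemoglobin, stood at 1.03, 1.53 and 5.17 CPM in control libraries 1, 2 and 3 and at 74.08, 71.56 and 74.24 CPM in knockdown libraries 1, 2 and 3. Control 3 was again the highest control, as it was for HMOX1. The log2 fold change of HP was 4.87 (SE 0.40, edgeR adjusted p = 5.51e-07). With 1 library left out it ran from 4.47, 22.2-fold, without control 1 to 5.82, 56.4-fold, without control 3. HP had 10 counts in control 1, and it too passed the filter only through the knockdown, so its place in the 30% supports nothing. It may share reads with its near-identical neighbour HPR. LRP1, an endocytic receptor that takes up heme bound to hemopexin, rose by 1.71 on the log2 scale (edgeR adjusted p = 0.00151). POR, the reductase that feeds electrons to heme oxygenase, rose by 0.85 (edgeR adjusted p = 0.0430) and kept its call in 1 of 6 fits without 1 library (0.73 to 0.98 over the 6). Short stretches of LRP1 and POR exons overlap STAT6 and TMEM120A on the other strand.

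In the lists of iron import, export and iron-sulfur assembly, 1 gene each was called. Those were 10% of the import, 33.3% of the export and 4% of the iron-sulfur genes tested, beside 10.8% of all genes. Of 10 tested genes of import and the transferrin cycle, SLC39A8, a zinc and iron importer, fell by 0.64 (edgeR adjusted p = 0.00643) and 0 rose. The call was lost without knockdown 3 (-0.55). Of 3 tested partners of ferroportin and hepcidin, SMAD4, a signal carrier of the hepcidin pathway, fell by 0.59 (edgeR adjusted p = 0.00933). The call was lost without control 2 (-0.59), and 4 of the 10 listed genes of that group had no count in any library. HAMP, which encodes hepcidin and was named after its values were seen, had 1 count in knockdown 1 and 0 elsewhere. Of 25 tested genes of iron-sulfur cluster assembly, ISCU, the scaffold on which clusters are built, rose from 104 ± 9.82 to 171 ± 11.8 CPM (log2 fold change 0.72, edgeR adjusted p = 0.00161) and 0 fell.

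**Figure D4:**
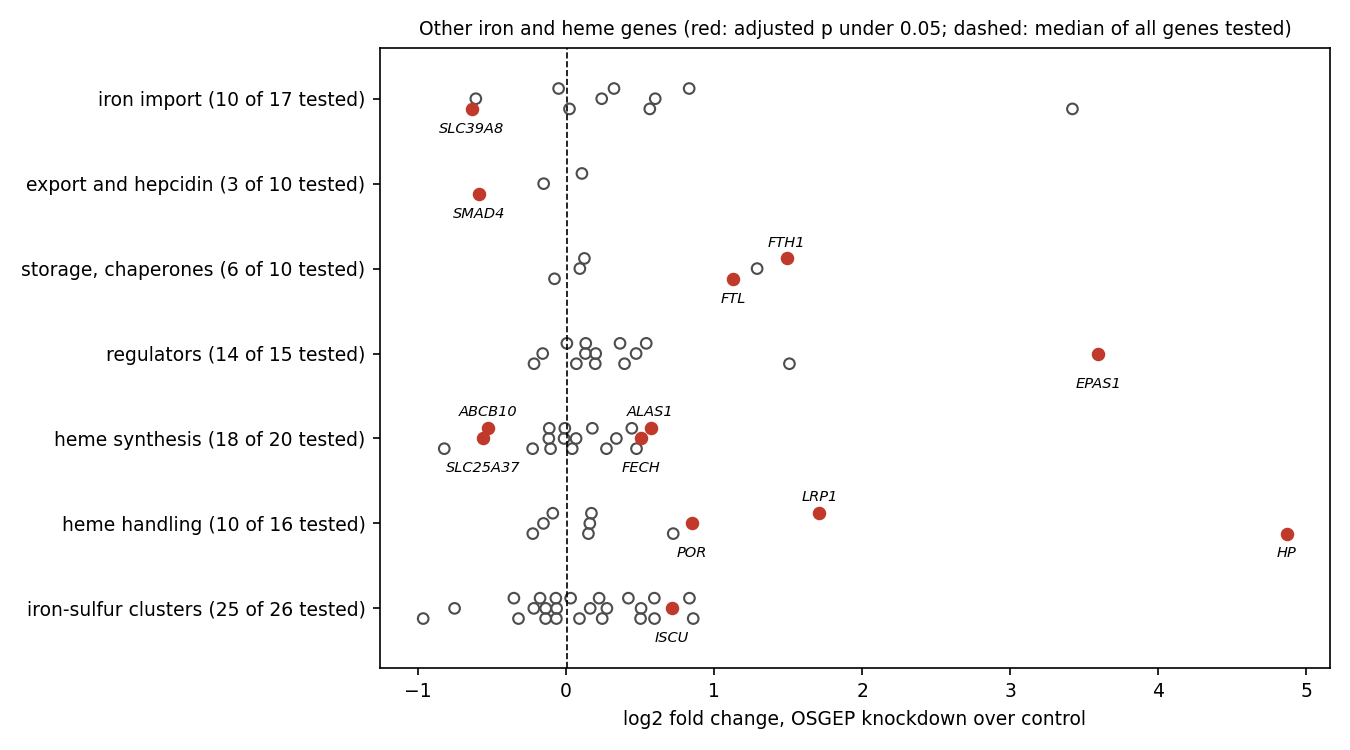
Log2 fold change, OSGEP knockdown over control (x axis), of the tested genes in 7 lists of other iron and heme genes (rows); filled red points are called at an adjusted p under 0.05, open points are not, and the dashed line is the median of all genes tested. HP at 4.87 and EPAS1 at 3.59 lie farthest to the right, and 4 of the 86 genes were called lower.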

How the data were processed

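The authors deposited a table of raw counts for each library, with Ensembl identifiers. HISAT2 2.1.0, featureCounts 1.6.3 and the builds GRCh38 and GRCm38 are named without roles, per the submitters' processing notes. The library kit was stranded, per the labels' protocols, and neither the strand setting of the counting nor how it treated multi-mapped reads was stated. Reads of overlapping genes on opposite strands may therefore not be told apart. Groups and replicate numbers came from sample titles. Symbols came from a table of current names (57532 of 58302 identifiers), and positions and exon lengths from GENCODE release 29 (58039). CPM and RPKM were computed here from the deposited counts. edgeR 4.0.16 in R 4.3.3 was fitted over all genes with group as the only term, TMM scaling and filterByExpr (minimum count 10, minimum total 15), two-sided, and its steps were tested on simulated counts. Each SE was derived from the test, as the absolute log2 fold change divided by the square root of the F statistic. Intervals were built from that SE, are unadjusted and cover the spread between libraries. The floor of 3 counts covers counting error only.

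The members and lists were chosen with earlier results of these data known. Named genes are OSGEP, the members, and of each list up to 5 called genes, those of largest change at 5 CPM or more on average, or the 2 most abundant where none was called. Genes named outside the rule are marked in the text. Alternatives were RLE factors, library size alone, other filters, the replicate number as a block, DESeq2 1.42.0, limma-voom (limma 3.58.1), an adjusted p of 0.01, and each library left out.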

Additional observations from a re-analysis of the deposited data

How the results depend on the processing

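All 3 member calls held with RLE factors, library size alone, both other filters, DESeq2 and limma-voom, and 2 to 3 members were called with 1 library left out. HMOX1 and SLC48A1 were called under all 14 alternatives. At an adjusted p of 0.01 SLC11A2 was not called, and 823 genes were called in all. IREB2, at -0.035 and not called, changed sign with library size alone (0.035), without knockdown 3 (0.022) and without control 2 (0.019), and ran from -0.113 to 0.022 with 1 library left out. With 1 library left out, 870 to 1624 genes were called in all, 1507 in the full fit (870 without control 3, 890 without control 2 and 941 without knockdown 3), and 8 to 14 of the other iron and heme genes, 13 in the full fit (8 without control 2). With library size alone 859 genes were called higher and 612 lower, and the median over all genes moved by 0.071. No pairing by replicate number was seen: deviations of same-numbered libraries correlated at -0.116, -0.0618 and -0.0368, beside -0.0384 to 0.104 for other pairs. Deviations were taken from group means of 3 libraries, so a weak shared batch could be missed. With the replicate block, 1072 genes, all 3 members and 11 of the other iron and heme genes were called. FECH and POR were not, at edgeR adjusted p of 0.0705 and 0.0804. Depth limits SLC40A1 most, with 17 counts in the knockdown and 36 in the control libraries together, and the mean CPM filter of 5 removed it.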
